A study of Mus musculus with 7 samples.

Results

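A group of 9 myeloid C-type lectin receptor genes was followed in splenic natural killer (NK) cell preparations cultured with or without interleukin 2 (IL2). They were Clec4a1, Clec4a2, Clec4a3, Clec4d, Clec4e, Clec4n, Clec7a, Clec12a and Clec10a, and made up 9 of the 19752 genes measured. Each was taken by its symbol, with 1 probe set (transcript cluster) per gene. The family was picked because Clec4a3 and Clec4a1 were among the largest falls with IL2 in these same arrays, so the differences between the groups given below for these 9 genes are a description and carry no test. The cells were splenocytes of male C57BL/6 mice aged 6 weeks, labelled as NK cells with NK1.1 as the marker and enriched with an EasySep kit that removes other cell types. They were kept in vitro for 8 h, either with IL2 at 250 U/ml (4 arrays, replicates 1 to 4) or untreated, without added cytokine (3 arrays, replicates 2 to 4). The titles of replicates 3 and 4 name the time and those of replicates 1 and 2 do not. The labels do not say whether the replicates are separate mice or cultures, and the spread behind each p-value may therefore be technical.

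C-type lectin receptors are membrane proteins of the innate immune system whose extracellular lectin domain binds sugars, lipids or ligands of damaged cells. In the spleen the receptors considered here are known mainly from monocytes, macrophages, neutrophils and dendritic cells. Some activate the kinase SYK, either through the Fc receptor gamma chain or through a motif in their own tail, and then the adaptor CARD9, while others carry an inhibitory motif that recruits phosphatases such as SHP-1. Monocytes and other myeloid cells are not the cells named in the labels, and in a bulk sample fewer cells of a type and less RNA per cell cannot be told apart.

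The receptor genes lie mostly in a pair of clusters on mouse chromosome 6, and the RefSeq promoter table (GRCm38.p6) held 7 of the 9, with no entry matched for Clec4n and Clec10a. The 250 bases before the transcription start are printed 5′ to 3′ for 4 genes, all of which were lower with IL2. Clec4a1 (chr6:122921598-122921847, plus strand) and Clec4a3 (the second of 2 listed starts, chr6:122952394-122952643, plus strand) are shown as the pair for which the family was picked. Clec4e (chr6:123289872-123290121, minus strand) and Clec4a2 (chr6:123122440-123122689, plus strand) are shown because each holds motif letters that the pair lacks. Capitals mark matches on either strand to GAGGAA (a core bound by ETS factors such as PU.1), TTCNNNGAA (STAT factors), TGANTCA (AP-1), TTGCNNAA (C/EBP factors) or TGTGGT (RUNX factors), none of which overlap in these windows.
Clec4a1: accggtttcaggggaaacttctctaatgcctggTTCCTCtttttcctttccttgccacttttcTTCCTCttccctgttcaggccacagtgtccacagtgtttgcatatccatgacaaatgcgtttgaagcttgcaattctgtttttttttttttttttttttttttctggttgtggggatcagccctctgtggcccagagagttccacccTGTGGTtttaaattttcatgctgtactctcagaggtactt
Clec4a3: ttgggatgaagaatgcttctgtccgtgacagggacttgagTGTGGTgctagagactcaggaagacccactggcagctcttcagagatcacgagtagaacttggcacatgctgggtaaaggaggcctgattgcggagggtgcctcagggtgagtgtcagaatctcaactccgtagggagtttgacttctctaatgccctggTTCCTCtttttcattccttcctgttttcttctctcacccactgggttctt
Clec4e: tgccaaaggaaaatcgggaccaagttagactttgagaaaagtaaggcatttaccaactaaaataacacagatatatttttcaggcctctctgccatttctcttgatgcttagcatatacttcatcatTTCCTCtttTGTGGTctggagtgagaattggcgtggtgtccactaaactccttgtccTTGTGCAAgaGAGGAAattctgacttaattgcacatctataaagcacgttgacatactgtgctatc
Clec4a2: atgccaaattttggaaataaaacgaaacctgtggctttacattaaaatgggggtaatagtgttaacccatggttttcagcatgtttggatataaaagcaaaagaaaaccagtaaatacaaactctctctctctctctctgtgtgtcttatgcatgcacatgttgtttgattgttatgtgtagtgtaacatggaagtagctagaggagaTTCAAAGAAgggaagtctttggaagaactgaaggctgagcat

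GAGGAA was found before at least 1 start of 6 of the 7 genes with a promoter entry (Clec4a1, Clec4a3, Clec4d, Clec4e, Clec7a and Clec12a). It was found in 23.3% of all 32851 promoter windows of the same length. The counts are of genes and the shares of single windows, and Clec4a3 and Clec7a had 2 listed starts each. Clec4a3 held GAGGAA before its second start only. TGTGGT was found for 4 of 7 (14.0% of all windows), TTGCNNAA for Clec4e and Clec12a (9.56%), TTCNNNGAA for Clec4a2 alone (7.02%) and TGANTCA for Clec12a alone (6.75%). Each match is a description of letters in a window and not a binding site. The windows of Clec4a1 and Clec4a3 also shared a longer stretch, in which 45 of 51 aligned columns were identical. It ran from -234 to -185 in Clec4a1 and from -68 to -20 in Clec4a3, counted from each start, and held the unbroken run cctggttcctctttttc, which contains a GAGGAA match on the minus strand. The local alignment score of this pair (1 per identical base, less penalties for mismatches and gaps) was 30, and the next highest score between windows of different receptor genes was 10.

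Of the 9 receptor genes, 6, all of the Clec4 group, were called lower with IL2 by limma at a Benjamini-Hochberg adjusted p under 0.05, and 0 were called higher. Of all genes, 0.901% were called lower and 2.08% higher, and since the family was picked on this contrast nothing is read from the difference. The 6 genes were 3.81- to 7.01-fold lower. The other 3, Clec7a, Clec12a and Clec10a, were 1.08- to 1.68-fold lower and were not called. For 7 of the 9 genes every IL2 array lay below every untreated array, as did 3.38% of all genes. The median log2 difference was -2.01 over the 9 genes and -0.01 over all genes.

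**Figure D1:**
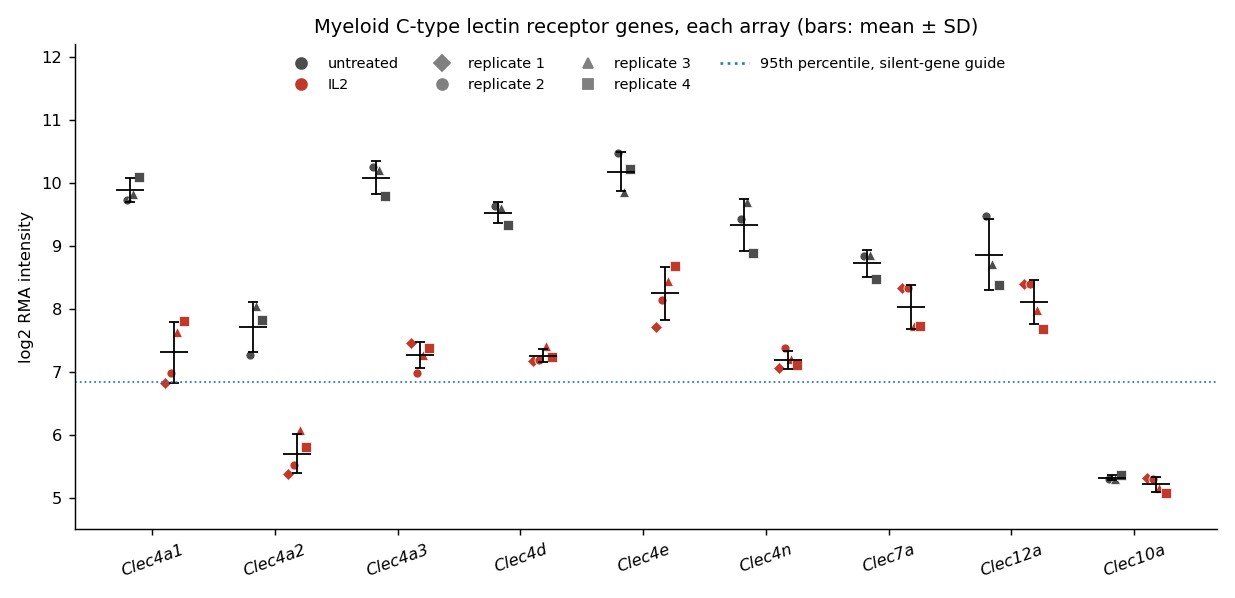
Log2 RMA intensity (y axis) of the 9 receptor genes (x axis) on every array. Grey points are the 3 untreated arrays, red points the 4 IL2 arrays, marker shapes give the replicate number, and black bars the mean and SD of each group. The dotted line is the 95th percentile (6.83) of the mean levels of olfactory and vomeronasal receptor genes. The groups stand apart for the 6 Clec4 genes and Clec7a, and overlap for Clec12a and Clec10a.

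The DCIR group comprises Clec4a2, which encodes the inhibitory receptor DCIR, and its relatives Clec4a1 and Clec4a3. Clec4a3 (transcript cluster 10541564) had log2 intensities of 10.25, 10.21 and 9.78 in untreated replicates 2, 3 and 4, and of 7.45, 6.99, 7.27 and 7.38 in IL2 replicates 1 to 4. The lowest untreated array was 2.33 above the highest IL2 array. The mean went from 10.08 ± 0.26 (SD, n = 3) to 7.27 ± 0.20 (n = 4), a log2 difference of -2.81 (SE 0.15), which was the third most negative difference of all genes.

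Clec4a1 (10541555) read 9.72, 9.83 and 10.10 in the untreated arrays and 6.82, 6.99, 7.63 and 7.81 with IL2. The groups did not overlap, but the IL2 arrays spread more widely than the untreated ones, with replicates 1 and 2 low and replicates 3 and 4 higher. The means were 9.88 ± 0.20 and 7.31 ± 0.48, a difference of -2.57 (SE 0.25). Clec4a2 (10541587) had 7.26, 8.04 and 7.83 in untreated cells and 5.38, 5.53, 6.08 and 5.81 with IL2, a difference of -2.01 (SE 0.22). Untreated replicate 2 was the lowest of its group, still 1.19 above the highest IL2 array.

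Dim probes were judged against 1190 olfactory and vomeronasal receptor genes, which served jointly as a rough guide to the level of silent genes. Their mean log2 levels had a median of 5.14 and a 95th percentile of 6.83, and probes differ in brightness for reasons other than expression. All 4 IL2 arrays of Clec4a2 lay below that percentile, so its fold change may be a low estimate. Clec4a1 lay just below it on 1 IL2 array, and Clec10a lay below it on all 7 arrays.

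The activating receptors that pair with the Fc receptor gamma chain are encoded by Clec4d (MCL), Clec4e (Mincle, a receptor for mycobacterial glycolipid and for damaged cells) and Clec4n (Dectin-2, a receptor for fungal mannans). Clec4d (10541614) read 9.63, 9.60 and 9.33 in untreated cells and 7.18, 7.19, 7.41 and 7.24 with IL2. Both groups were tight, with SDs of 0.17 and 0.10, and the difference of -2.27 (SE 0.10) had the smallest SE among the 6 Clec4 genes. Clec4n (10541605) had 9.42, 9.69 and 8.88 in untreated cells against 7.07, 7.38, 7.20 and 7.11 with IL2, a difference of -2.15 (SE 0.19). Here the spread lay in the untreated group, where replicate 4 was lowest.

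Clec4e (10547664) read 10.47, 9.85 and 10.22 in untreated cells and 7.71, 8.14, 8.44 and 8.68 with IL2. The groups were 1.16 apart, with IL2 replicate 1 lowest and IL2 replicate 4 highest. The difference was -1.93 (SE 0.24), the smallest of the 6. It was -1.47 in the 4 arrays with the time in their titles and -2.54 in the 3 without it.

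Clec7a and Clec12a were lower by less than the Clec4 genes. Clec7a (10548375), which encodes the beta-glucan receptor Dectin-1, read 8.84, 8.86 and 8.48 in untreated cells and 8.33, 8.32, 7.73 and 7.72 with IL2. All IL2 arrays were below all untreated arrays, but by 0.15 at the closest, and the difference of -0.70 (SE 0.20) was not called. Clec12a (10542164), for the inhibitory receptor MICL that senses uric acid crystals, had 9.48, 8.72 and 8.38 in untreated cells and 8.39, 8.39, 7.98 and 7.68 with IL2. Untreated replicate 4 lay just below IL2 replicates 1 and 2, so the groups overlapped, and the difference was -0.75 (SE 0.28). It was -0.44 without untreated replicate 2, the highest array. Both genes were called lower when the style of the title was taken as a block, at -0.77 and -0.87.

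Clec10a (10377782), for the galactose-type lectin MGL1 of macrophages and dendritic cells, had the lowest readings of the 9. They were 5.30, 5.30 and 5.37 in untreated cells and 5.32, 5.30, 5.16 and 5.08 with IL2, a difference of -0.11 (SE 0.09). Its untreated mean lay above 56.2% of the silent-gene guide, and whether the gene was expressed cannot be told at this signal.

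The receptors differed in how they varied among the IL2 arrays. Clec4a1 was higher in IL2 replicates 3 and 4 (7.63 and 7.81) than in replicates 1 and 2 (6.82 and 6.99), and Clec4e followed the same order of pairs (8.44 and 8.68 against 7.71 and 8.14). Clec7a ran the other way, at 7.73 and 7.72 in replicates 3 and 4 and 8.33 and 8.32 in replicates 1 and 2, as did Clec12a (7.98 and 7.68 against 8.39 and 8.39). These pairs are the arrays with and without the time in their titles. With 2 arrays of each kind this split was not tested. Within the style that names the time the differences were -2.24 for Clec4a1, -1.99 for Clec4a2, -2.67 for Clec4a3, -2.14 for Clec4d and -2.14 for Clec4n. In the other style, with a single untreated array, they were -2.81, -1.81, -3.03, -2.44 and -2.20 in the same order.

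By the RefSeq gene order (GRCm38.p6) the 6 Clec4 genes lie in 1 run of 9 neighbouring lectin genes, from Clec4a1 to Clec4e. The run also holds Clec4a4, Clec4b1 and Clec4b2, which are not among the 9 receptors; Clec4a4 was looked at for its position, after values had been seen. All 3 were called lower by limma with Benjamini-Hochberg adjustment. Clec4a4, for the dendritic cell receptor DCIR2, had 5.71 ± 0.17 (n = 3) untreated and 4.49 ± 0.06 (n = 4) with IL2, a difference of -1.22 (SE 0.09, limma adjusted p = 0.00109). Clec4b1 differed by -0.70 (SE 0.10, limma adjusted p = 0.0131) and Clec4b2 by -0.36 (SE 0.07, limma adjusted p = 0.0425). The call of Clec4a4 held with each array left out in turn, whereas Clec4b1 was lost when untreated replicate 3 or IL2 replicate 2 or 3 was dropped (limma adjusted p of 0.0515 to 0.0589) and Clec4b2 when any 1 array was (0.0633 to 0.151). With the replicate number as a block neither Clec4b1 nor Clec4b2 was called (limma adjusted p of 0.0565 and 0.127). With an offset of 32 added before the log, which damps dim probes, the differences were -0.63 for Clec4a4 and -0.25 for Clec4b1, both still called. These probes were dim, below the 95th percentile of the silent-gene guide in both groups, and signal from related Clec4 transcripts on them was not tested. The protein-coding genes on either side of the run, Necap1 (-0.14, SE 0.19) and Vmn2r19 (0.15, SE 0.19), did not pass the test. Vmn2r19 (4.42 ± 0.45 untreated) is itself among the genes of the silent-gene guide, so a fall in it may not show.

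**Figure D2:**
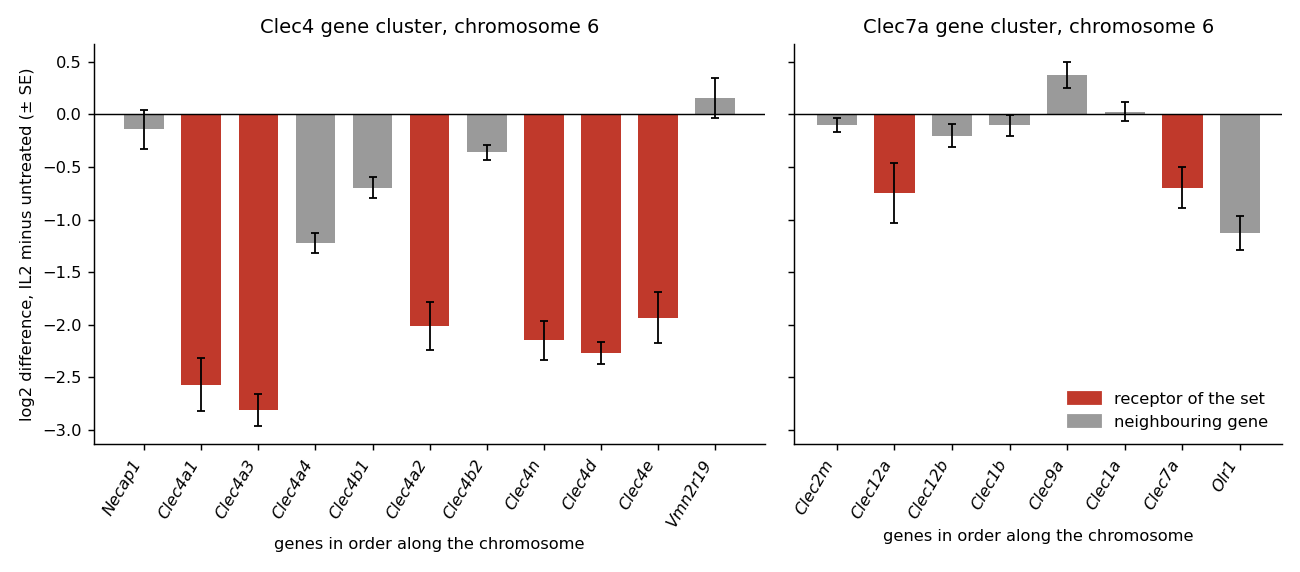
Log2 difference, IL2 minus untreated, with its SE (y axis), for genes in their order along chromosome 6 (x axis, no distance scale). The left panel shows the Clec4 cluster with 1 protein-coding gene on either side, the right panel the cluster of Clec12a and Clec7a likewise. Red bars are the receptors of the set and grey bars their neighbours. All 9 lectin genes from Clec4a1 to Clec4e lie below 0, while in the right panel Clec9a (0.37) lies above 0.

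In the second cluster, Clec12b, Clec1b, Clec9a and Clec1a lie between Clec12a and Clec7a, and Olr1 lies beyond Clec7a. The 4 genes in between had differences from -0.20 (Clec12b) to 0.37 (Clec9a, a dendritic cell receptor for dead cells) and none passed the test. Their untreated means were 5.38 to 6.73, below the 95th percentile of the silent-gene guide (6.83), so a fall in them may not show. Olr1, which encodes the scavenger receptor LOX-1 for oxidised lipoprotein, fell, with means of 7.56 ± 0.25 (n = 3) untreated and 6.43 ± 0.24 (n = 4) with IL2 and a difference of -1.13 (SE 0.16, limma adjusted p = 0.0131). It lost its call without untreated replicate 4 (limma adjusted p = 0.07).

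Among 27 other C-type lectin genes, 5 were called lower and 0 higher, against 0.901% and 2.08% of all genes. The median log2 difference was -0.11, with 24 negative and 3 positive. Many of the 27 had untreated means below 6.83, the 95th percentile of the silent-gene guide, where a fall may be understated. Among brighter genes not called, every IL2 array was lower for Cd93 (-1.27, SE 0.32) and higher for Ly75 (0.73, SE 0.21). Both were named after their values were seen. Those called lower were Cd209a, Olr1, Cd209d, Clec4b1 and Clec4b2. Cd209a, a mouse relative of the dendritic cell lectin DC-SIGN, read 9.63, 9.24 and 9.21 in untreated cells and 7.82, 7.82, 7.45 and 7.51 with IL2. The groups were well apart and the difference was -1.71 (SE 0.14, limma adjusted p = 0.00147). Cd209d, of the same family, differed by -1.10 (SE 0.17, limma adjusted p = 0.0162), and was no longer called when replicate 2 or 4 of either group was left out (limma adjusted p of 0.0562 to 0.0919). The count of 5 fell to 2 when untreated replicate 4 or IL2 replicate 2 was left out, and to 3 when untreated replicate 2 or 3, or IL2 replicate 3 or 4, was. It was also 3 with the replicate number as a block.

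Few genes of the signalling route behind these receptors passed the test. Of 23 measured members of the signalling list, only Fgr, a SRC-family kinase of myeloid cells, was called lower and 0 were called higher. Of all genes, 0.901% were called lower and 2.08% higher. The median of the list was 0.04, with 13 positive and 10 negative differences. Fgr had 8.75 ± 0.20 untreated and 7.91 ± 0.17 with IL2, a difference of -0.84 (SE 0.13, limma adjusted p = 0.017). It was no longer called when untreated replicate 4, IL2 replicate 2 or IL2 replicate 4 was left out (limma adjusted p of 0.0658 to 0.0707). Fcer1g, the Fc receptor gamma chain that Mincle, MCL and Dectin-2 need, read 11.68, 11.81 and 11.57 in untreated cells and 11.82, 11.90, 11.77 and 11.82 with IL2, a difference of 0.14 (SE 0.08). NK cells use this chain as well, as they do the adaptor gene Tyrobp (-0.14, SE 0.10). IL2 arrays all lay below untreated arrays for Syk (-0.71, SE 0.16), Btk (-0.60, SE 0.17), Card9 (-0.45, SE 0.16) and Rel (-0.23, SE 0.10). These genes did not pass the test. Together with Fgr they made up 5 of the 23 genes, against 3.38% of all genes. Apart from Fgr, the signalling genes given here were named after their values were seen.

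Of 16 genes that these receptors are known to induce in myeloid cells, 10 had positive and 6 negative differences. Many of the 16, such as Il6 (4.48) and Il10 (4.15), had untreated means below 6.83, the 95th percentile of the silent-gene guide. A fall in such genes may not show, and the sign of their difference says little. Il6 and Il10 were named after their values were seen. Of the 16, 3 were called higher and 0 lower, against 2.08% and 0.901% of all genes. Those called were the chemokine gene Ccl3 (2.80, SE 0.17, limma adjusted p = 0.000376), the cyclooxygenase gene Ptgs2 (2.12, SE 0.13, limma adjusted p = 0.000376) and Tnf (0.83, SE 0.12, limma adjusted p = 0.0143). Tnf lost its call when any 1 of untreated replicates 3 and 4 and IL2 replicates 2, 3 and 4 was left out (limma adjusted p of 0.0616 to 0.0769). NK cells themselves make Ccl3 and Tnf. Il1b, the inflammasome cytokine gene, read 9.42, 8.23 and 7.91 in untreated cells and 7.80, 8.11, 6.91 and 6.89 with IL2. Its groups overlapped and its difference of -1.09 (SE 0.43) did not pass the test; it was named after its value was seen.

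**Figure D3:**
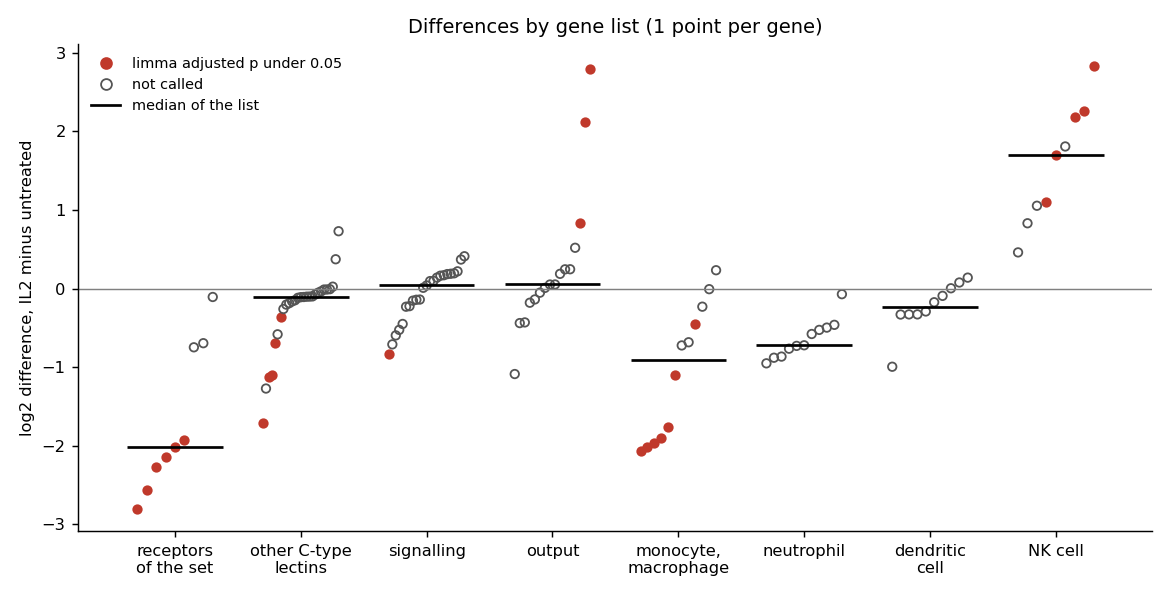
Log2 difference, IL2 minus untreated (y axis), of each gene in 8 lists (x axis), 1 point per gene sorted by value. Filled red points passed limma at an adjusted p under 0.05, open points did not, and black lines are list medians. The receptors of the set were picked on this contrast. Their median of -2.01 stands beside -0.91 for monocyte and macrophage markers, -0.72 for neutrophil markers and 1.70 for NK cell markers.

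Several markers of myeloid cells fell over the same arrays. Of 12 measured monocyte and macrophage markers, 7 were called lower and 0 higher, against 0.901% and 2.08% of all genes. Their median was -0.91, with 11 negative differences and 1 positive. Their summed intensity was 17133 to 19507 in untreated arrays and 7133 to 9946 with IL2. The untreated sum rests mostly on Lyz2 and Cybb, with untreated means of 12.66 and 12.06. The 5 markers not called were Itgam (-0.72), Cybb (-0.68), Mpeg1 (-0.23), Ccr2 (-0.01) and Fcgr1 (0.23). All 5 were named after their values were seen. Adgre1, an adhesion receptor gene of macrophages, differed by -2.07 (SE 0.19, limma adjusted p = 0.00181). Cd14, the endotoxin co-receptor gene, differed by -2.02 (SE 0.30, limma adjusted p = 0.0136) and lay near the silent-gene guide with IL2, at 5.95 to 6.97. Leaving out untreated replicate 4 or IL2 replicate 2 or 3 ended its call (limma adjusted p of 0.0572 to 0.0852). The summed intensity of the 9 receptor genes was 5242 to 6322 in untreated arrays and 1515 to 1598 with IL2. For neither sum did the groups overlap.

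Of 11 neutrophil markers, limma called 0, while 5 had an unadjusted p under 0.05. Their median was -0.72, and the largest differences were in S100a9 (-0.95, SE 0.31) and Camp (-0.88, SE 0.36). Both were called lower by limma with the replicate number as a block (adjusted p of 0.0427 for S100a9 and 0.0226 for Camp) and with the title style as a block (0.0433 and 0.00735), and S100a9 also after a second quantile normalization (0.048). The sum of the neutrophil markers was 9316 to 12016 in untreated arrays and 5676 to 8749 with IL2. Of 10 dendritic cell markers limma called 0, while 4 had an unadjusted p under 0.05. The median was -0.23, with 7 negative and 3 positive differences. The largest differences were in Flt3 (-0.996, SE 0.27) and Ccr7 (-0.33, SE 0.12). Itgax, at 8.24 untreated and 8.38 with IL2, was among the positive ones (0.14, SE 0.19). Flt3 was called lower by limma after the second quantile normalization (-1.06, adjusted p = 0.0308). The sum of the dendritic cell markers was 19184 to 22924 untreated and 16156 to 17555 with IL2. It rests mostly on Cd74, H2-Aa, H2-Ab1 and Ccr7, with untreated means of 11.70 to 12.54. Which cells these transcripts came from was not tested, so the sum cannot be assigned to dendritic cells. Xcr1 (6.22) and Zbtb46 (6.61) lay below the 95th percentile of the silent-gene guide (6.83), so they add little to the list. Apart from Flt3 and Ccr7, the dendritic cell markers given here were named after their values were seen.

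NK cell markers went the other way. All 9 had positive differences, and 5 were called higher and 0 lower, against 2.08% and 0.901% of all genes. The median was 1.70, with the largest rises in Prf1 (2.83, SE 0.28) and Nkg7 (2.27, SE 0.09). The sum of the NK cell markers was 5072 to 8520 untreated and 19671 to 23969 with IL2. The 4 not called were Gzma (1.81), Klrk1 (1.05), Eomes (0.83) and Klre1 (0.46), named after their values were seen. More NK cells and more RNA of these genes per cell cannot be told apart here. Medians were -0.25 for 7 B cell markers (largest differences Ebf1 at -0.49 and Pax5 at -0.29), -0.03 for 9 T cell markers (Cd5 at -0.51 and Cd4 at -0.38) and -0.09 for 4 erythroid markers (Slc4a1 at -0.25 and Klf1 at 0.13), with 0 called by limma in these lists and 3, 0 and 0 at an unadjusted p under 0.05. After the second quantile normalization limma called Ebf1 (-0.64, adjusted p = 0.0234) and Pax5 (-0.44, adjusted p = 0.0327) lower. The T cell median changed sign with single arrays, from -0.20 when untreated replicate 2 was left out to 0.14 when IL2 replicate 1 was. Cd4 was at -0.83 with untreated replicate 2 dropped and at -0.04 with untreated replicate 4 dropped. The B cell median was -0.14 once untreated replicate 2 was dropped. The sum of the B cell markers was 14436 to 16674 untreated and 12860 to 13653 with IL2, with no overlap. The sums of the T cell markers (1891 to 2980 and 1716 to 3142) and erythroid markers (328 to 407 and 326 to 357) overlapped. The part of the myeloid marker shift in the receptor differences was not tested.

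Within each array, the mean log2 level of the 6 Clec4 genes was set against that of the 12 monocyte and macrophage markers. The Clec4 mean minus the marker mean was -0.23, 0.13 and -0.18 in untreated replicates 2 to 4 and -1.25, -1.35, -1.29 and -1.42 in IL2 replicates 1 to 4. The mean of the Clec4 genes went from 9.45 ± 0.09 (n = 3) to 7.16 ± 0.21 (n = 4), while that of the markers went from 9.55 ± 0.14 to 8.49 ± 0.25. Relative to the marker list, the Clec4 genes differed by -1.23, a description since they were picked on this contrast. Single markers overlapped their range of -2.81 to -1.93: Adgre1 (-2.07), Cd14 (-2.02) and F13a1 (-1.97, named after its value was seen) lay within it.

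**Figure D4:**
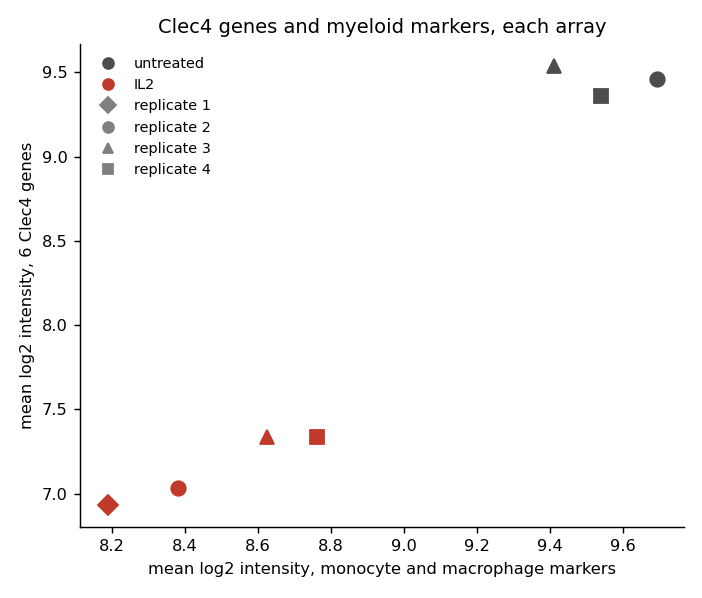
Mean log2 intensity of the 6 Clec4 genes (y axis) against that of 12 monocyte and macrophage markers (x axis), 1 point per array. Grey points are untreated arrays, red points IL2 arrays, and marker shapes give the replicate number. The axes do not start at 0. Untreated arrays sit at Clec4 means of 9.36 to 9.54 and IL2 arrays at 6.93 to 7.34.

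Over the 7 arrays, the genes whose pattern was most like the mean of the 9 receptors were Pparg (Pearson's r = 0.993), Nxpe4 (0.992), Niban1 (0.990), Lyz2 (0.988) and Adgre1 (0.983), out of genes with at least the median signal. Pparg encodes a nuclear receptor of macrophages and fat cells and went from 8.53 ± 0.04 (n = 3) to 7.09 ± 0.10 (n = 4). Lyz2, the lysozyme gene of myeloid cells, went from 12.66 ± 0.11 to 10.89 ± 0.23. These correlations rest mainly on the step between the groups. After the group means were subtracted, the closest genes were Actr6 (0.981), Frmd4b (0.979), Zfp930 (0.979), Mphosph10 (0.974) and Septin2 (0.972), of which 0 were called. They are the highest of many genes ranked over 7 arrays and carry no test. After the same subtraction the receptors correlated with each other from -0.96 (Clec4a1 with Clec7a) to 0.76 (Clec7a with Clec12a). Their mean therefore does not stand for each receptor.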

How the data were processed

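The authors deposited 1 intensity value per transcript cluster and array (Affymetrix Mouse Gene 1.0 ST). The submitters' processing notes name Affymetrix Power Tools and RMA; for versions, settings and genome build the sources used here give nothing. The linear values were brought to log2 with no offset. Of 24922 probe sets, 21425 had 1 gene symbol, 1399 several and 2098 none. The brightest probe set per gene was kept among those with 1 symbol, which left 19752 genes, and 0 symbols needed updating. Each of the 9 receptor genes had 1 probe set. The array median was 121 to 131. On 53.3% of probe sets at least 2 arrays held exactly equal values; the effect of these ties on the spread was not tested.

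The 7 arrays were fitted in limma 3.58.1 (R 4.3.3; statmod 1.5.0 for robust fits) with 1 factor and eBayes (7.68 degrees of freedom), with Benjamini-Hochberg adjustment over all genes at 0.05. SE is that of the moderated fit and ± the SD over arrays. Simulated data with known changes were used to test the fit. Promoter windows were compared with Biopython 1.88 local alignment. Besides the receptors, the text names the 3 called genes with the largest difference of each pathway list, the 2 with the largest of each marker list, and the 5 most alike genes; others are marked. Members and lists were chosen with earlier results of these data known. No column was left out, and some listed genes were not analysed here. Alternatives were the replicate number or title style as a block, other normalizations, a signal filter (genes with at least the median signal), other fit settings, other uses of probes, an offset of 32, leaving out each array, and each title style alone.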

Additional observations from a re-analysis of the deposited data

Results flagged for a closer look

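Of 39 named genes examined for 1 IL2 array far from the other 3, Tnf was the only one past Dixon's 95% critical value of 0.829, and chance would pass about 1 group in 20. Its log2 intensity was 8.997 in IL2 replicate 1 and 9.36 to 9.41 in the others. The gap was 0.871 of the range.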

How the results depend on the processing

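The 6 Clec4 calls held in every alternative that used at least 6 arrays, except that Clec4a2 was below the signal filter and Clec4e lost its call without untreated replicate 4. Over the 4 arrays whose titles name the time, 4 receptors were called lower (not Clec4e and Clec4n), and over the other 3 arrays 0 were, where limma called 0 of all genes and 2630 had an unadjusted p under 0.05. With each array left out, 5 to 6 receptors were called lower. Clec12a was also called with the replicate number as a block (7 receptors), and Clec7a too with title style as a block (8). The same-numbered arrays deviated together for replicates 2 (r = 0.460) and 4 (0.308) but not 3 (-0.299), so the numbers were not taken to pair them, and untreated replicate 3 correlated best with IL2 replicate 1; with the block 738 genes were called against 588. The replicate block gave a receptor median of -1.91. The receptor median was -1.82 after an offset of 32, which damps dim probes, and -2.20 over the arrays without the time; leaving out arrays gave -2.14 to -1.91. All 9 differences kept their sign under every alternative except Clec10a (0.01 over the arrays without the time).

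Signalling genes called lower numbered 4 (Btk, Fgr, Prkcd and Syk) when the arrays were quantile normalized once more, 2 (Fgr and Syk) with the signal filter, 0 within either title style and 0 to 2 with each array left out. Output genes called lower were 1 (Il1b) with the replicate number as a block, on all 7 arrays or the 6 with shared numbers, and with title style as a block; those called higher were 0 over the arrays without the time. Other C-type lectins called lower were 3 with the replicate block, 2 with the signal filter, 1 in the arrays naming the time, 0 in the rest, and 2 to 4 with each array left out; those called higher were 0 to 1. Of all genes, 694 were higher and 577 lower after the second quantile normalization, 81 and 22 over the arrays with the time, 0 and 0 over the others, and 134 to 517 and 65 to 152 with each array left out. Marker medians, with and without the time, were -0.67 and -1.31 for monocytes and macrophages and -0.13 and -0.32 for dendritic cells, -0.45 and -0.99 for neutrophils, -0.11 and -0.34 for B cells and 0.17 and -0.10 for T cells, and without the time 1.23 for NK cells and 0.0719 for erythroid cells. The dendritic cell median was -0.31 with the signal filter and -0.27 to -0.15 with each array left out, the B cell one -0.29 to -0.14, the T cell one -0.20 to 0.14, the neutrophil one -0.85 to -0.54 and the erythroid one -0.23 to -0.0189; the erythroid list had no gene left by the signal filter. The cause was not tested for any of these.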
